A study of Neurospora discreta with 48 samples.

Results

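Genes with almost no RNA-seq counts in 1 of the 2 parental strains of a Neurospora discreta cross, and clear counts in the other, are described here. Neurospora discreta is a filamentous ascomycete fungus related to the model bread mould Neurospora crassa. A gene was taken as near silent in an arm when its mean there was at most 1 normalized count and its mean in the other arm was at least 20. In the authors' deposited table, 53 of 9280 genes met these limits, 17 of them near silent in arm A and 36 near silent in arm B. The genes were thus chosen by the measured arm means themselves, so their levels and fold changes are given as a description and not as a test.

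The study sequenced RNA of mycelial pads, labelled as mycelia and conidia, in 48 libraries of 4 strains at 4 times with 3 replicates each. The comparison used here is that of the African parent FGSC8831, labelled high RI, with the North American parent FGSC8578, labelled low RI, after 15 min of light. The labels do not expand RI. All cultures were entrained at 25 °C in cycles of 12 h light and 12 h dark on a low glucose medium. The 2 progeny of the cross, N309-89 (high RI) and N309-50 (low RI), and the other times are not analysed here. Each parent is 1 isolate, so a difference between the arms is one between these isolates. The column names call the arms A and B without naming the strains. The order of strains in the table's own name would make B the African and A the North American parent, which was not settled from the data, so directions stay A and B.

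The authors' deposited table gives 1 mean per gene and arm, over 3 libraries, and no value per library, so no SD can be printed. Its means summed to 10507386 normalized counts in B and 9331506 in A. The depth of each library is unknown, and the labels do not say whether replicates were separate cultures, so the authors' p-values may rest on technical spread alone. In bulk RNA of this kind, fewer cells of a type and less RNA per cell cannot be told apart. Gene IDs are not paired with names or functions in the files, so the tissue label could not be checked against marker genes. Genes are given by scaffold and position, with at most 2 IDs per direction. The genome build is not given in the sources used here, and positions are those of the authors' deposited table.

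Natural isolates of filamentous fungi differ in gene content as well as in gene regulation. Some genes are present in some strains and missing from others, and loci such as mating type and heterokaryon incompatibility, which govern mating and fusion between individuals, can carry highly diverged versions. Neurospora also mutates repeated DNA before meiosis, a genome defence called repeat-induced point mutation. A gene that is not transcribed, is absent, or is too diverged for reads to align to the reference gives the same outcome in a count table, which is few or no counts. Which of these holds for any gene described here was not tested.

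At the limits of 1 and 20, genes near silent in B were more numerous than genes near silent in A, and with at least 50 normalized counts required in the expressing arm the order turned round, with 12 near silent in A and 9 near silent in B. Of the 7592 genes with at least 20 normalized counts in B, 17 (0.224%) were near silent in A. Of the 7791 genes with at least 20 in A, 36 (0.462%) were near silent in B. Over the whole table, low means were also more frequent in B. At most 1 normalized count was found for 256 genes in B (2.76%) and for 165 in A (1.78%). The mean in the low arm can be resolved into whole counts, because a count in each of the 3 libraries of an arm is worth a slightly different amount. Resolved this way, 27 of the 53 genes had 0 counts in all 3 libraries of the low arm, 18 had 1 count in 1 library and 8 had 2 counts. For the genes near silent in A, 9 had 0 counts, 7 had 1 and 1 had 2. Among the genes near silent in B the numbers were 18, 11 and 7. Over all 17 genes the 3 libraries of A held 9 counts in all, and over all 36 genes those of B held 25. Numbers above 0 take the counts as not rescaled, which was not tested.

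**Figure D1:**
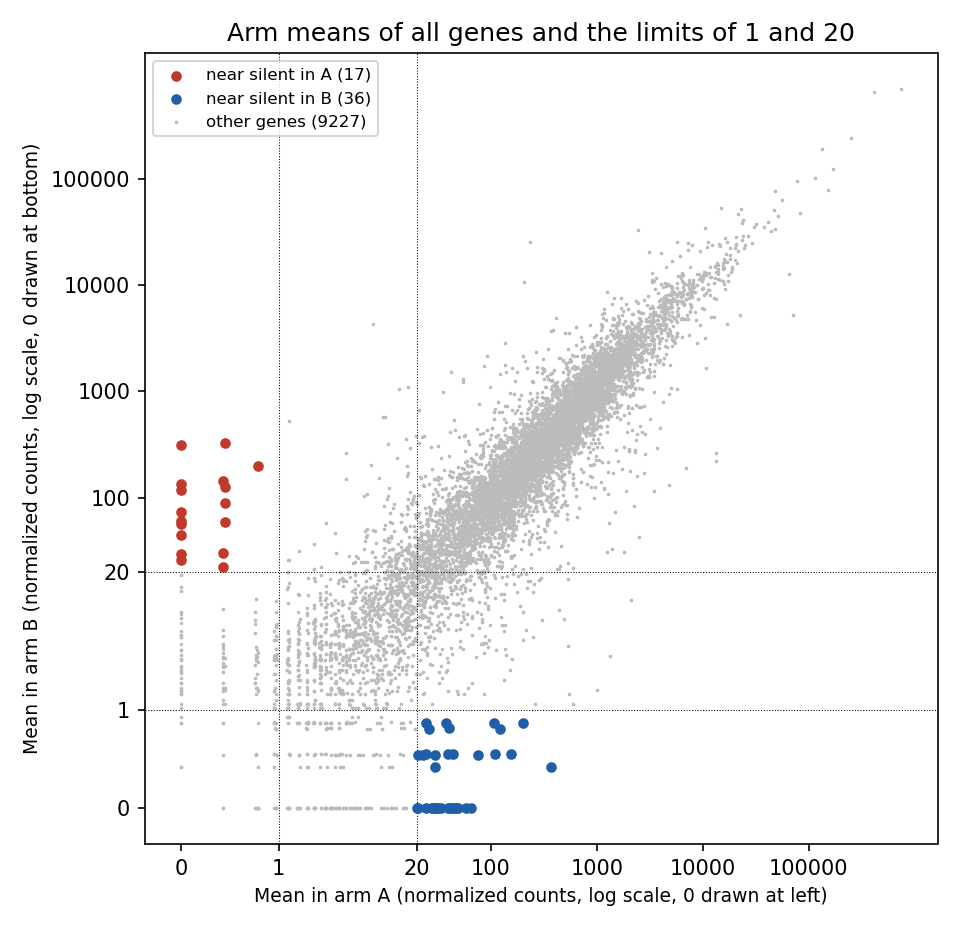
Mean of every gene in arm B (vertical) against arm A (horizontal), in normalized counts on log axes with 0 drawn at the edge, and dotted lines at 1 and 20. The 17 genes near silent in A lie at upper left and the 36 near silent in B at lower right, both apart from the diagonal on which most of the other 9227 genes lie.

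In the authors' deposited table all 53 genes had a DESeq adjusted p under 0.05, and all 53 an edgeR false discovery rate under 0.05. The background in the authors' deposited table was 6.93% of genes called higher in B and 8.03% called higher in A by DESeq. At a DESeq adjusted p under 0.01, which all 53 also passed, it was 4.34% and 5.26%, and with edgeR 9.74% and 11.6%. The rule used the same contrast, so nothing is read from the members' calls. The highest DESeq adjusted p among the 53 genes was 0.0002 in the authors' deposited table, and the edgeR likelihood ratios ran from 19.8 to 222.

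The 17 genes near silent in A covered a wide range of levels in B. Their median was 72.9 normalized counts in B, with a lowest of 22.2 and a highest of 327, and 7 of them stood at 100 or more. That median lies at the percentile 31.3 of all genes in B, and genes with at least 20 in B had a median of 327. These genes were thus weakly to moderately expressed in the arm that expressed them, and none was among the abundant transcripts.

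The highest of them was estExt_fgenesh2_pg.C_11152 on scaffold 1 (4713576 to 4717042, minus strand), with 327 normalized counts in B and 0.312 in A in the authors' deposited table. In A this is 1 count in 1 library. Its ratio of B over A was 1049, with an exact Poisson 95% interval from 188 to 41416 that covers the counting error of the low arm only. Next came a scaffold 13 gene with the protein ID 19484 (9865 to 10086, plus strand), which the authors' deposited table lists at 313 in B and 0 in A. This gene was at least 326-fold higher in B, with A set at a floor of 3 counts over the arm, a mean of 0.961. Its model spans only 222 bp, the shortest of the 17.

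The authors' deposited table gives 197 normalized counts in B and 0.641 in A for a scaffold 23 gene (22138 to 22899). In A this is 2 counts in 1 library, whose low counts never took the value 1, and whether they had been rescaled was not tested. On scaffold 2, 1 gene (2012675 to 2013965) stood at 144 in B and 0.301 in A in the authors' deposited table, and another (1676759 to 1678140) at 134 in B and 0 in A. These 3 genes lay apart from each other, and no gene directly beside any of them was called different by DESeq. The sixth, on scaffold 4 (737322 to 739553), had 125 in B and 0.312 in A in the authors' deposited table. For the genes at 0 in A, the lower bounds of the fold ran from 27.0 to 326. For those with 1 or 2 counts in A the ratios of B over A ran from 73.7 to 1049.

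The 36 genes near silent in B were weaker in their expressing arm. They had a median of 38.8 normalized counts in A, a lowest of 20.2 and a highest of 371, and only 6 reached 100. The median lies at the percentile 22.0 of all genes in A, where genes with at least 20 had a median of 310. With 27 of the 36 under 50 in A, most of these genes lay close to the limit of 20. With at least 10 normalized counts required in A, 57 genes were near silent in B.

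The highest was estExt_Genewise1.C_760003, the only gene of scaffold 76 in the table (9951 to 11558, plus strand), for which the authors' deposited table has 0.291 normalized counts in B and 371 in A. In B this is 1 count in 1 library, whose low counts never took the value 2, and whether they had been rescaled was not tested. The ratio of A over B was 1276 with an exact Poisson 95% counting interval from 229 to 50413, which takes the count as not rescaled. The gene estExt_fgenesh2_pg.C_180061 on scaffold 18 (247230 to 249191, minus strand) had 0.760 in B, or 1 count in each of 2 libraries, and 202 in A, by the authors' deposited table. Its ratio of A over B was 266, with a counting interval from 73.7 to 2199. It ends a run of neighbours on scaffold 18 that were all lower in B.

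The authors' deposited table gives 0.385 in B and 155 in A for a scaffold 4 gene (869393 to 871567). A 582 bp gene on scaffold 2 (1461587 to 1462168) had 0.666 in B and 122 in A in the authors' deposited table. On scaffold 8, the authors' deposited table has 0.385 in B and 109.6 in A for the gene at 207027 to 209966. On scaffold 9, the authors' deposited table has 0.750 in B and 108 in A for the gene at 464816 to 465399. All 6 of the strongest genes of this direction therefore kept 1 or 2 counts in B, whereas the 18 genes at 0 in B reached at most 64.6 in A. For those 18 genes the lower bounds of the A over B fold, with B set at 3 counts over the arm, a mean of 1.15, ran from 17.5 to 56.0. For the 18 genes with 1 or 2 counts in B the ratios of A over B ran from 32.9 to 1276. Bounds and ratios are different quantities, so the ranges do not rank the genes at 0 below the others.

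**Figure D2:**
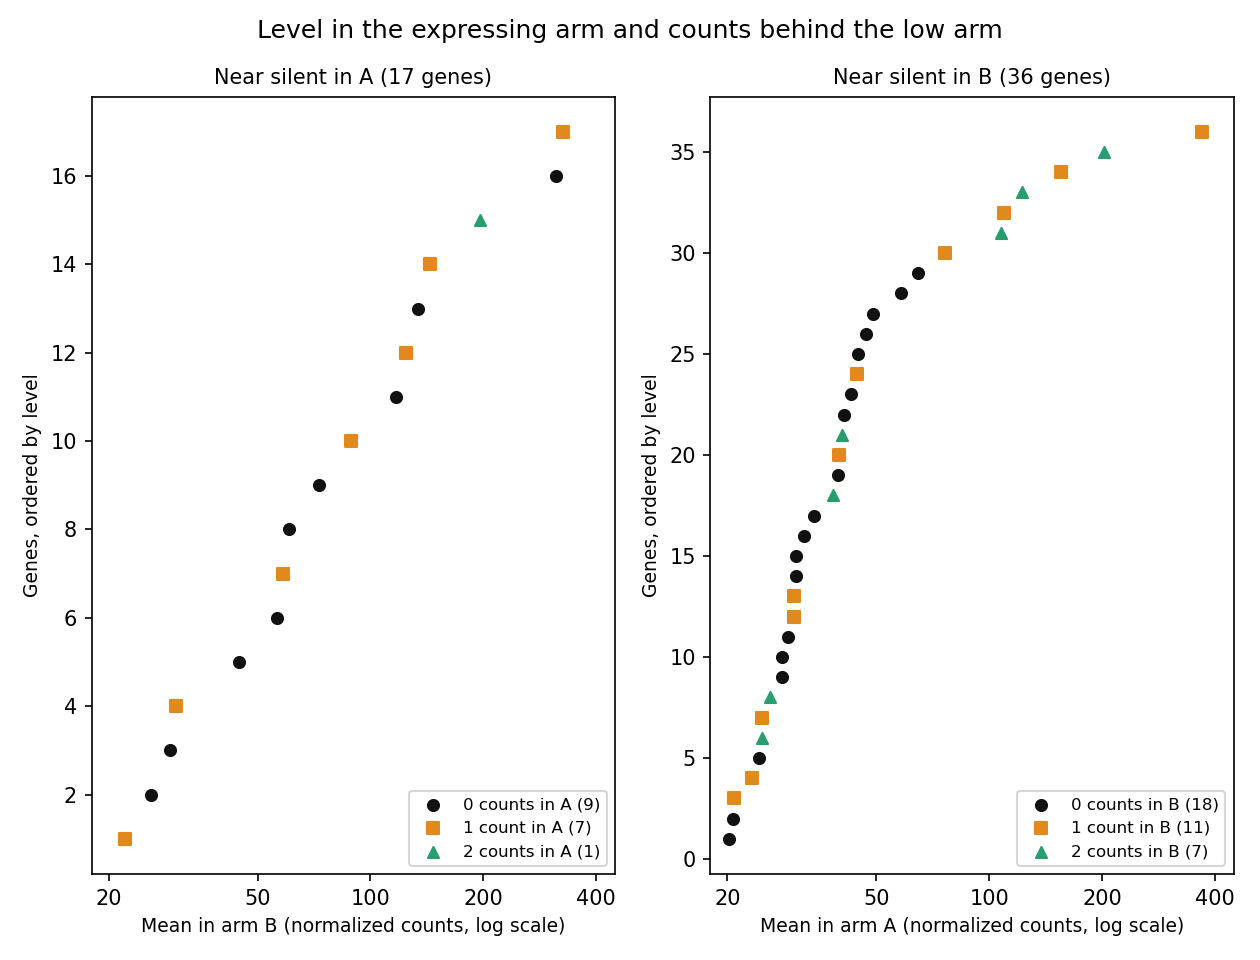
Mean in the expressing arm (normalized counts, log scale) of each gene near silent in A (left) and near silent in B (right), ordered by level, with the symbol giving the number of counts behind the low arm. The 17 genes on the left spread from 22.2 to 327, while 27 of the 36 on the right lie under 50.

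Genes lay on both sides of each limit of the rule. The steps of low-arm level counted next differ in width, so their numbers do not compare directly. Among genes with at least 20 normalized counts in B, 9 were at 0 in A, 8 above 0 and up to 1, 5 above 1 and up to 2, 10 above 2 and up to 5, and 39 above 5 and up to 10. Among those with at least 20 in A, the numbers for B were 18, 18, 18, 50 and 81. Just inside the lower limit were the scaffold 23 gene at 0.641 in A and the scaffold 18 gene at 0.760 in B. Just outside lay a scaffold 17 gene (374408 to 375364) with 20.1 in B and 1.24 in A, and a scaffold 5 gene (736070 to 736651) with 1.14 in B and 27.8 in A, in the authors' deposited table. At the upper limit, a scaffold 18 gene (54393 to 56171) was inside with 22.2 in B and 0.301 in A, and a scaffold 16 gene (439321 to 442143) outside with 18.6 in B and 0 in A, in the authors' deposited table. In the other direction, a scaffold 4 gene (871903 to 872173) was inside with 0 in B and 20.2 in A, and a scaffold 16 gene (499003 to 499622) outside with 0.666 in B and 19.4 in A, in the authors' deposited table.

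Because the lower limit is absolute, strongly expressed genes with a slightly higher residue fall outside it. A scaffold 1 gene (4520055 to 4521172) with 530 in B and 1.25 in A, and a scaffold 6 gene (8027 to 9405) with 1.55 in B and 1010 in A, were left out for that reason, by the authors' deposited table. Both exceed in their expressing arm the highest of the 53 genes.

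Gene models near silent in B were short. Their median span from start to end, introns included, was 891 bp, against 1779 bp for the 17 genes near silent in A. Among the 4003 other genes whose higher arm lay between 20 and 371 normalized counts, the range of the members, the median was 1667 bp. Of the genes near silent in B, 13 of 36 (36.1%) spanned under 600 bp, as did 2 of 17 (11.8%) near silent in A and 11.1% of the other genes. Short models are also more common among weakly expressed genes. Between 20 and 50 normalized counts, 10 of 27 genes near silent in B (37.0%) and 28.5% of the 698 other genes were under 600 bp, with medians of 873 bp and 1140.5 bp. From 100 to 371, 2 of 6 genes near silent in B and 5.52% of the 2501 other genes were that short, with medians of 1785 bp and 1865 bp. The share of short models among genes near silent in B therefore lay above that of other genes in both ranges, by less in the lower one. In the upper range it rests on 2 genes, and the medians there lay close together. With at least 50 normalized counts required in A, the 9 remaining genes near silent in B had a median span of 1608 bp. No test was made, because genes are not replicates.

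The extremes of span were the same in kind for both directions. The longest gene near silent in A spanned 3467 bp and is the scaffold 1 gene named above, and the shortest is the 222 bp model on scaffold 13. The longest near silent in B spanned 3192 bp (scaffold 6, 1306179 to 1309370), with 0 in B and 58.1 in A by the authors' deposited table. The shortest spanned 204 bp (scaffold 2, 214182 to 214385), with 0 in B and 30.4 in A in the authors' deposited table. None of the 53 genes reached 5000 bp. Such spans were also rare among the other genes with at least 20 in either arm, at 264 of 7945. Those 7945 genes were not matched to the members for level.

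**Figure D3:**
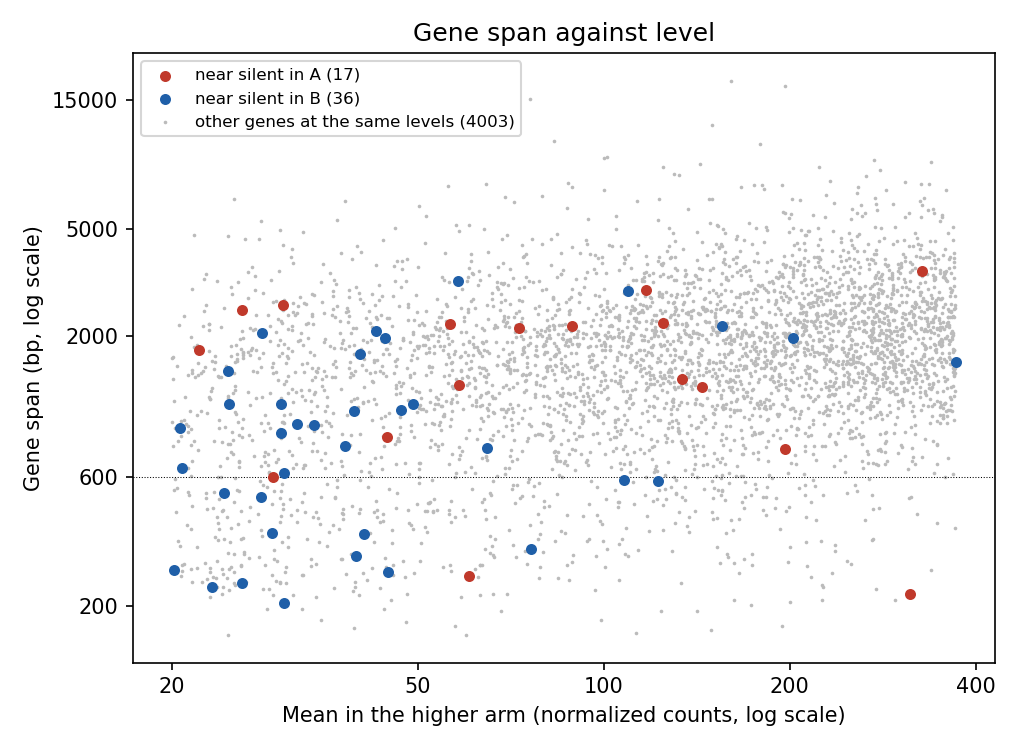
Gene span (bp, log scale) against the mean in the higher arm (normalized counts, log scale) for the 17 genes near silent in A, the 36 near silent in B and 4003 other genes at the same levels, with a dotted line at 600 bp. Of the genes near silent in B, 13 lie under the line, against 2 of those near silent in A.

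The IDs of 12 of the 53 genes (22.6%) name the gene predictor SNAP, a program that predicts genes from sequence alone, against 7.19% of the 4003 other genes at the same levels. By direction they were 5 of 17 near silent in A (29.4%) and 7 of 36 near silent in B (19.4%). In the band from 20 to 50 normalized counts such IDs were found for 25.0% of 32 members and for 77 of 698 other genes. All 7 near silent in B lay in that band. From 50 to 100 they were 2 of 5 near silent in A, 0 of 3 near silent in B and 7.96% of other genes. From 100 to 371 they were 2 of 7, 0 of 6 and 5.88%. No member overlapped another gene model of the table, whereas 5.92% of the other genes at these levels did. Whether any member has a near-identical copy elsewhere in the genome, which could draw its reads away, was not tested. Both strands were used about equally, with 26 members on the plus and 27 on the minus strand.

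The 53 genes lay on 18 of the 64 scaffolds in the table, and 9 scaffolds carried both directions. Scaffold 2 had the most, with 3 genes near silent in A and 4 near silent in B among 763 genes of at least 20 normalized counts in either arm (0.917%). Scaffold 18, which is much smaller, had 1 and 3 among 82 (4.88%), and scaffold 15 had 1 and 3 among 148 (2.70%). Scaffold 13 also had 1 and 3, among 211 (1.90%), and scaffold 11 had 1 of each among 266 (0.752%). Of the 23 scaffolds with at least 40 genes, 6 had no member, the largest of them scaffold 12 with 251 genes of at least 20. Over all scaffolds, the 53 members stood beside 7945 other genes of at least 20 in either arm. Among the 23 larger scaffolds, scaffold 18 had the highest share. With 1 to 7 genes per scaffold, these shares rest on small counts and show no more than that members were spread over many scaffolds.

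In kb, the median distance to the outermost genes of scaffolds was shorter for members of both directions than for other genes. By gene order, only genes near silent in A lay within 10 genes of one more often than other genes did. In all, 5 of the 53 (9.43%) lay that near. Distance was taken to the outermost gene coordinate of the table, since scaffold lengths are not given. A distance in kb is limited by the size of the scaffold, for which members and other genes were not matched. The median distance was 209.6 kb for genes near silent in A and 322 kb for genes near silent in B, against 467 kb for the 4003 other genes. Within 10 genes of such an end lay 3 of 17 genes near silent in A (17.6%) and 2 of 36 near silent in B (5.56%), against 6.15% of the other genes. The 2 near silent in B were themselves outermost genes, the only gene of scaffold 76 and the last gene of scaffold 15 (793996 to 796078), which had 0 in B and 42.9 in A in the authors' deposited table.

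Most members had no other member directly beside them, but some were grouped. For scale, members are 53 of the 9280 genes. Neighbours that DESeq called without being members are counted separately below. Taking the nearest gene on either side, 2 of the 17 genes near silent in A and 8 of the 36 near silent in B lay directly beside another gene near silent in the same arm. No gene near silent in one arm lay beside a gene near silent in the other. Stretches were then bounded by the nearest genes with at least 20 normalized counts in the low arm. There were 7 stretches that held more than 1 member, 3 in the A direction with 7 genes and 4 in the B direction with 8 genes, and the other 38 members were single.

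The only group of 3 lay on scaffold 1, where 4 consecutive genes on the minus strand, between 4704721 and 4717042, had almost no counts in A. In genome order they stood at 117, 7.95, 72.9 and 327 normalized counts in B and at 0, 0, 0 and 0.312 in A, by the authors' deposited table. Over these 12.3 kb, B summed to 525 and A to 0.312, which is 1 count. The second of the 4 is a 213 bp model below the limit of 20 in B, and the authors' deposited table gives it a DESeq adjusted p of 0.0065. The stretch had sharp edges. The gene 111 bp to its left (4703051 to 4704609) had 288 in B and 342 in A, and the next gene to its right (4720397 to 4721832) had 112 in B and 156 in A by the authors' deposited table. The authors' deposited table gives these 2 edge genes DESeq adjusted p of 0.763 and 0.587.

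On scaffold 9, 3 neighbours and the gene before them were low in A. Between 210395 and 217295, the genes stood at 88.8, 148 and 60.4 normalized counts in B and at 0.312, 4.34 and 0 in A, by the authors' deposited table. The middle gene is not a member, because its A mean is above 1, and the gene before the group (208359 to 208982) had 8.38 in B and 0 in A in the authors' deposited table. By the authors' deposited table, DESeq called all 4 of them. They were bracketed by genes with 223 in B and 112 in A on one side and 811 in B and 456 in A on the other in the authors' deposited table, neither called by DESeq.

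Scaffold 4 held the widest of the 7 stretches, made of 9 plus-strand genes in a row from 693942 to 744083 that stayed below 20 in A. Its 2 members had 56.4 normalized counts in B and 0 in A (698894 to 701101), and 125 in B and 0.312 in A (737322 to 739553), in the authors' deposited table. Unlike the group on scaffold 1, the 5 genes between them were near or at 0 in both arms, with 0 to 2.30 in B and 0 to 2.16 in A by the authors' deposited table. The authors' deposited table gives 299.8 and 123 in B and 252 and 125 in A for the genes outside. Low counts in that interval were therefore shared by both strains, apart from the 2 members.

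From the first to the last member, groups in the B direction spanned 2.78 to 4.83 kb, against 6.90 to 40.7 kb in the A direction. Over all genes below 20 in the low arm, the stretches overlapped in length. They ran from 3.34 to 21.9 kb in the B direction and from 8.94 to 50.1 kb in the A direction. On scaffold 8, 2 genes on the plus strand only 71 bp apart (207027 to 209966 and 210038 to 210363) had 0.385 and 0.375 normalized counts in B and 109.6 and 76.2 in A in the authors' deposited table. Each value in B is that of 1 count. Their outer neighbours had 213 and 501 in B and 267 and 322 in A in the authors' deposited table, so the low counts in B were limited to this pair within 9.01 kb.

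On scaffold 4, a pair between 869393 and 872173 had 0.385 and 0 normalized counts in B and 155 and 20.2 in A by the authors' deposited table. The gene just before it (868088 to 868512) was also called, with 1.45 in B and 23.7 in A in the authors' deposited table. On scaffold 13, a pair between 592753 and 597580 had 0 and 0.375 in B and 39.5 and 30.1 in A in the authors' deposited table. A pair on scaffold 18 between 204162 and 207125 had 0 in B for both genes and 47.0 and 34.0 in A by the authors' deposited table. The pairs on scaffolds 13 and 18 sit among further genes called lower in B.

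**Figure D4:**
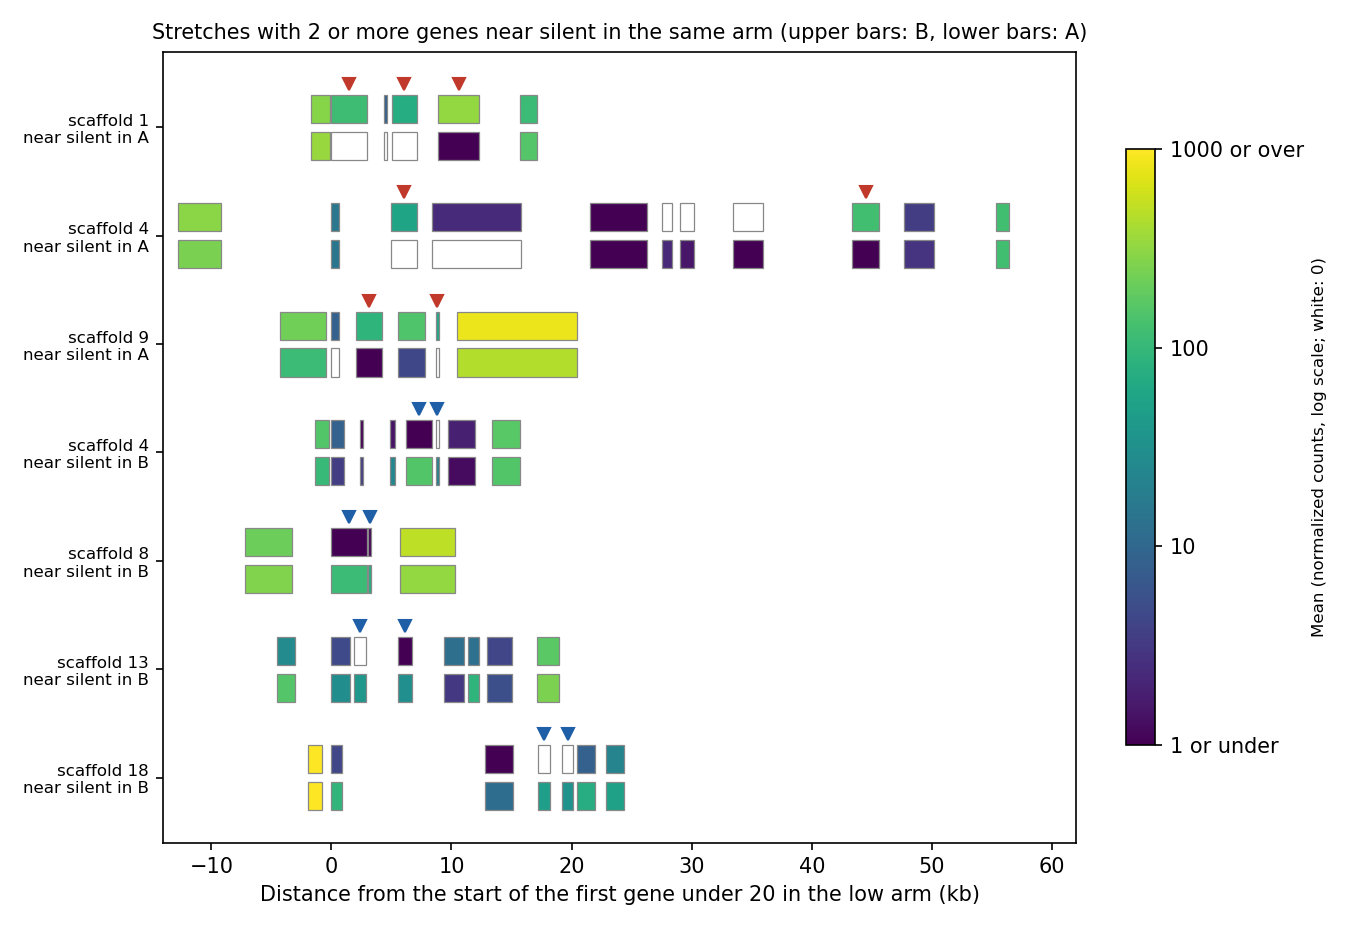
The 7 stretches with more than 1 gene near silent in the same arm, bounded by the nearest genes of at least 20 normalized counts in that arm. Each gene is a pair of bars from its start to its end (kb from the first gene under 20), coloured by its mean in B (upper) and A (lower), with triangles over the near silent genes, and the 5 genes between the triangles of the scaffold 4 stretch near silent in A are at or near 0 in both rows.

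Some single members could be bracketed closely. Of the 36 genes near silent in B, 14 had genes of at least 20 normalized counts in B on both sides, and so were alone in their bracket. The median bracket was 9.01 kb for the 34 that could be bracketed and 10.9 kb for the 17 genes near silent in A. With members left out, 65.6% of genes adjacent to genes near silent in B had at least 20 in B. Beside the 4003 other genes at the same levels that share was 82.1%. A 372 bp gene on scaffold 2 (1032212 to 1032583) had 0 in B and 29.1 in A in the authors' deposited table. Genes with 324 in B and 317 in A on its left and with 125 in B and 218 in A on its right stood only 1.04 kb apart, the right one 55 bp away, in the authors' deposited table. A 369 bp gene on scaffold 4 (401398 to 401766) had 0 in B and 41.0 in A, between genes 1.14 kb apart with 125 and 325 in B and 183 and 308 in A, in the authors' deposited table. None of these 4 flanking genes was called by DESeq. In the other 2 brackets under 3 kb, called genes did lie beside the member. A scaffold 9 gene (285093 to 286207) with 0.385 in B and 24.7 in A had a right neighbour called lower in B, with 24.4 in B and 534 in A, by the authors' deposited table. On scaffold 3, the gene at 2816245 to 2816769 with 0 in B and 24.3 in A lay between a gene called lower in B, with 261 in B and 664 in A, and one called higher in B, with 27.0 in B and 5.60 in A, by the authors' deposited table. Of the 17 genes near silent in A, 1 had such neighbours in A on both sides, a scaffold 2 gene (1426636 to 1429237) with 30.3 in B and 0.301 in A in the authors' deposited table.

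Genes directly beside genes near silent in A had low levels in A, and lower levels than elsewhere in B too, but less so when a second gene on either side was counted. Leaving out members, the 30 adjacent genes had a median of 22.9 normalized counts in B and 8.82 in A. Genes adjacent to the 4003 other genes at the same levels had medians of 197 in B and 212 in A. Of the 30, 9 had at most 1 normalized count in A and 2 (6.67%) at most 1 in B. Beside the other genes those shares were 1.64% in A and 2.36% in B. Of these 30 neighbours, 8 were called higher in B by DESeq (26.7%), none was called higher in A, and 22 were not called. The background for a call higher in B is 6.93% of all genes. With 2 genes on either side and members left out, the 58 neighbours had medians of 92.1 in B and 56.8 in A, against 207 in B and 221 in A beside the other genes.

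Neighbours of genes near silent in B were closer to the level of other genes. With members left out, the 61 adjacent genes had a median of 121 normalized counts in B and 183 in A. Of them, 4 (6.56%) had at most 1 in B and none had at most 1 in A. DESeq called 20 of the 61 (32.8%) higher in A, 5 (8.20%) higher in B and 36 neither way, where the background for a call higher in A is 8.03%. Genes beside the other 4003 genes were called higher in A in 8.49% of cases and higher in B in 6.62%. Calls in the member's own direction were therefore more frequent beside members of either direction than beside other genes at these levels, while most neighbours were not called. These shares come from the same libraries as the rule and carry no test.

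**Figure D5:**
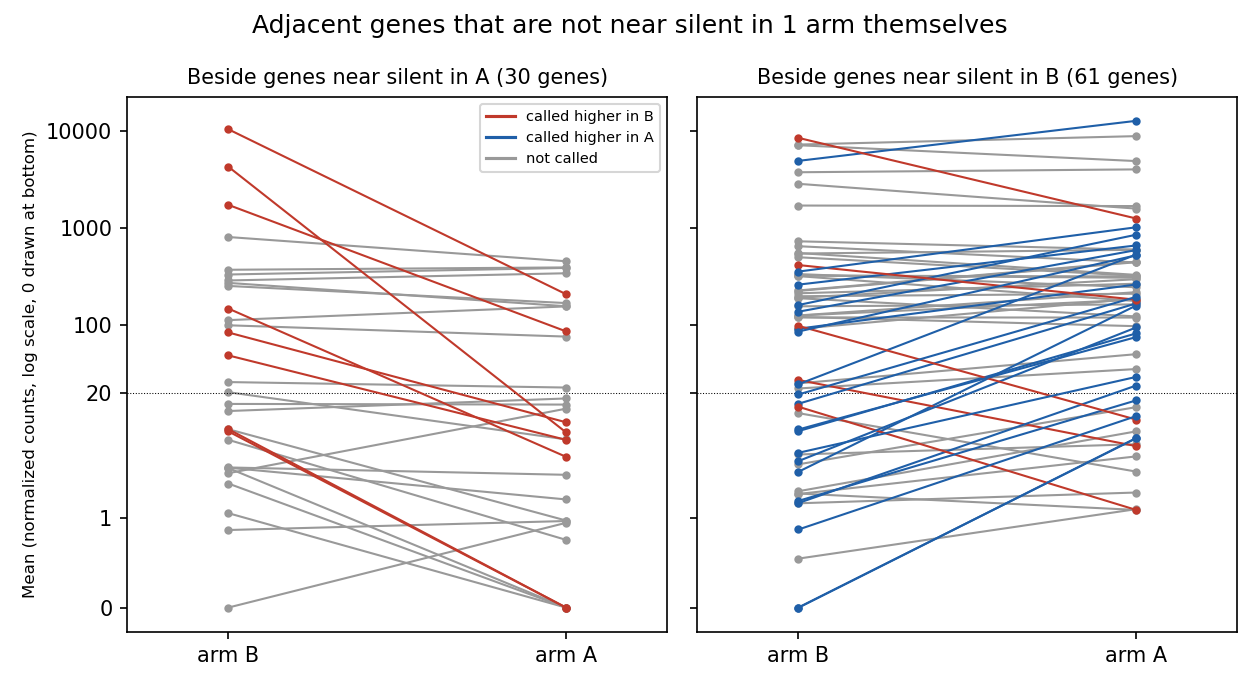
Means in B and A (normalized counts, log scale, 0 drawn at the bottom) of the genes directly beside a gene near silent in A (left, 30 genes) or in B (right, 61 genes), members left out, with 1 line per gene. Red lines are genes called higher in B by DESeq (8 on the left, 5 on the right), blue lines genes called higher in A (none on the left, 20 on the right), and grey lines genes not called.

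Set beside other genes called in the same direction by DESeq, members more often had called genes on both sides. A gene called in the same direction lay directly beside 8 of 17 genes near silent in A (47.1%) and beside 32.0% of the 206 other genes called higher in B at the same levels. Both neighbours were so called for 4 of the 17 (23.5%) and for 2.43% of the 206. For genes near silent in B, at least 1 such neighbour was found for 20 of 36 (55.6%), against 32.9% of the 386 other genes called higher in A at these levels. Both neighbours were so called for 8 of them (22.2%) and for 4.15% of the 386. The members of one group count one another as neighbours, which adds to their shares.

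Some members belonged to longer runs of consecutive genes that DESeq called in the same direction. Of the genes near silent in A, 8 of 17 lay in runs of 3 genes or more and 9 had no such neighbour. Among those near silent in B, 13 of 36 lay in runs of 3 or more and 16 had no such neighbour. Members that shared a run were each counted, such as the 3 in the scaffold 1 run. How often other called genes lay in runs of 3 or more was not counted, so these numbers do not set members apart. The longest run held 8 genes on scaffold 18 (225359 to 249191, 23.8 kb), all lower in B, with a near silent gene as its last. Its other genes, in order, had 574, 32.7, 3.16, 57.3, 2.59, 4335 and 19.1 normalized counts in B and 1547, 1381, 72.1, 1318, 33.8, 16764 and 195 in A by the authors' deposited table. The near silent gene at the end, with 0.760 in B and 202 in A, had the lowest mean of the run in B by the authors' deposited table. The gene after it (250412 to 254360) had 320 in B and 177 in A and was not called in the authors' deposited table.

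A run of 6 genes on scaffold 13 (581802 to 597580, 15.8 kb) ended with the pair near silent in B described above. The 4 genes before the pair had 7.44, 42.4, 26.9 and 4.77 normalized counts in B and 66.8, 2520, 156 and 29.0 in A in the authors' deposited table. On scaffold 16, a gene near silent in B (485538 to 487254) had 0.676 in B and 40.3 in A by the authors' deposited table. It lay in a run of 5, beside genes that kept many counts in B, with 85.6 in B and 525 in A on its left and 356 in B and 1023 in A on its right in the authors' deposited table. Runs thus joined near silent genes to neighbours that were lower in B without being near silent.

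The scaffold 13 gene near silent in A (9865 to 10086) had neighbours with large differences. On its left a 228 bp model (8577 to 8804) had 4324 normalized counts in B and 7.76 in A, and on its right a gene (10731 to 11236) had 1743 in B and 85.9 in A by the authors' deposited table. The scaffold 19 gene near silent in A (280329 to 281645), with 58.4 in B and 0.312 in A, likewise lay between genes with 48.5 in B and 6.50 in A and with 10543 in B and 208 in A in the authors' deposited table. In both places the neighbours differed in the same direction as the member yet kept counts in A.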

How the data were processed

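The submitters' processing notes name DESeq, edgeR, HTSeq, SAMtools, TopHat2 2.1.1, cutadapt 1.3 and FastQC 0.11.4, with no role or order. Which genome build, annotation and strand setting were used is not given in the sources used here. The authors deposited 1 comparison table of the parents at 15 min of light. Per the file headers it holds a mean signal over both arms and a mean for each arm (counts divided by size factors), p-values and adjusted p-values of DESeq and edgeR rounded to 4 decimals, the edgeR log2 fold change and average log2 CPM, and a likelihood ratio score. It holds no counts per library, so the edgeR test foreseen was not fitted and the calls are the authors' own, at an adjusted p under 0.05.

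Members, comparison sets, neighbours and stretches were taken from the table with Python 3.11.15 and pandas 2.3.3. Low means under 3 were resolved into whole counts of 3 libraries with a tolerance of 0.0004, which gave 1 solution for all 425 low means of A and all 501 of B. The method was checked on simulated whole counts that were not rescaled. In 1 library of each arm of these data some whole numbers never occurred among low counts, as rescaled counts would show. The check does not cover that case. Folds against 0 use a floor of 3 counts over the arm. Intervals are exact Poisson at 95% for the low arm alone, and intervals and floors cover counting error only.

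By the rule for named genes, the 2 highest members per direction are named by ID. Given by position are the 6 highest, those beside another member, the longest and shortest, and those at the limits. Other genes described were chosen after their values were seen. The gene lists drawn up for mating type, incompatibility, clock, secondary metabolism, genome defence, conidia and sexual tissue matched no entry, because IDs are not paired with names. Members and lists were chosen with earlier results of these data known. Alternatives were other limits, equal arm totals, overlapping models, wider flanks, the edgeR calls of the authors and another floor.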

Additional observations from a re-analysis of the deposited data

Results flagged for a closer look

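The average log2 CPM of edgeR in the authors' deposited table enters no comparison of the arms. For 4 of the 53 genes (7.55%) it lay more than 1 log2 unit above the gene's level in the 6 libraries compared, after centring the difference on genes whose mean reached 100 normalized counts. Among the 4003 other genes at the same levels, 1.22% did so. The excess was 2.05 for the scaffold 2 gene (1676759 to 1678140), listed at 134 normalized counts in B and 0 in A in the authors' deposited table. It was 1.66 for the scaffold 4 gene (401398 to 401766) and 1.38 for a scaffold 15 gene (476605 to 477111) with 0 in B and 27.9 in A in the authors' deposited table. For the scaffold 9 gene (210395 to 212564) it was 1.02. There are no control libraries to set beside these values, and which libraries entered the average is not given in the sources used here.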

How the results depend on the processing

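No paired analysis was possible because values of single libraries are not in the table used, only arm means. Leaving out replicates, size factors of DESeq2 and no filter on low counts were not run for the same reason. Of 72 values under alternatives, 52 stayed within 1.5 times. With the low arm listed at 0, 9 genes were near silent in A and 18 in B, and 0 and 2 of them lay beside another member. With at least 10 in the other arm, 57 were near silent in B. With at least 50, 9 were near silent in B, 2 of them beside a member, with medians of 110 normalized counts in A, a span of 1608 bp, 209 kb to the scaffold end and 13.6 in B for flanking genes with members kept (137 with members left out), while 12 genes were near silent in A and the median level of genes near silent in A was 121 in B. Up to 2 counts in the low arm gave a flank median of 16.2 in A. With 2 genes on either side, 5 genes near silent in A had a member nearby and the flank median was 27.3 in A (56.8 with members left out). These values with members left out were added after seeing the data. A 64-fold limit, chosen after seeing the data, gave 17 and 21 genes, of which 12 and 12 are members. Floors of 3 counts per library lowered the highest bounds of B over A to 112 and of A over B to 20.5. Equal totals shift log2 values by -0.17 and gave 17 and 37 genes. Calls by edgeR (9.74% and 11.6% of all genes) or at a DESeq adjusted p under 0.01 (4.34% and 5.26%) held all 53 genes.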

Other observations

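The edgeR average of some members lay on the low side. It was more than 0.5 log2 units below the level in the 6 libraries for 6 of 17 genes near silent in A and 7 of 36 near silent in B, against 1.47% of the 4003 other genes at the same levels. The lowest values were -0.96 in the first direction, for the scaffold 2 gene (2012675 to 2013965), and -0.88 in the second, for the scaffold 9 gene (464816 to 465399). Both genes of the scaffold 8 pair were low, at -0.85 (207027 to 209966) and -0.80 (210038 to 210363). Genes of the scaffold 1 group near silent in A stood at -0.61 (4704721 to 4707679), -0.60 (4709728 to 4711862) and -0.09 (4713576 to 4717042), so neighbours of 1 group did not share 1 value.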
